A study of Homo sapiens with 12 samples.

Results

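Transcripts of 10 desmosome genes were followed in SCC15 and SCC25 cells, 2 cell lines of human head and neck squamous cell carcinoma that the sample labels call oral squamous cells of wild-type genotype. The genes are the desmosomal cadherins DSG2, DSG3, DSC2 and DSC3, the plaque genes JUP, DSP, PKP1, PKP2 and PKP3, and PERP. They were picked by gene symbol, and all 10 were found in both deposited tables, which together list 34227 genes. Cells received the vehicle DMSO or squamocin at 10 µg/mL for 24 h, with 3 libraries per treatment in each line and 12 in all. The sample labels give the treatment as ACGs, short for annonaceous acetogenins, the class of plant polyketides to which squamocin belongs. Each line stands for 1 tumor, and no source says whether the 3 libraries of a group came from separate cultures, so the p-values measure the spread between these libraries, which may be technical. The question asked was how squamocin changed the transcripts of this junction in each line, and whether the lines responded alike.

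Desmosomes are spot junctions that tie the keratin filaments of neighboring epithelial cells together, and they give stratified epithelia such as oral mucosa their resistance to tearing. Desmogleins and desmocollins are cadherins that cross the membrane and bind those of the next cell. Inside the cell, plakoglobin (encoded by JUP) and the plakophilins bind the cadherin tails and recruit desmoplakin (encoded by DSP), which grips the keratins. PERP is a tetraspan membrane protein of the desmosome. DSG2 and DSC2 are widely expressed and typical of simple epithelia, whereas DSG3 and DSC3 mark the keratinocytes of stratified epithelia.

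The sequences just upstream of 5 members are shown because these genes carry the main contrasts below: DSG2 was transcribed in both lines, DSG3, DSC2 and DSC3 in SCC25 and barely in SCC15, and PERP was called higher with squamocin in both. RefSeq promoters (GRCh38.p14) were matched by symbol for 8 of the 10 members, and PKP2 and PKP3 had no match. Each line gives the 250 bases before the RefSeq start, 5′ to 3′ on the strand of the gene, at chr18:31497927-31498176 (plus strand) for DSG2, chr18:31447491-31447740 (plus) for DSG3, chr18:31102422-31102671 (minus, the first of its listed starts) for DSC2, chr18:31042743-31042992 (minus) for DSC3 and chr6:138107420-138107669 (minus) for PERP. Capitals mark matches on either strand to the motifs searched, which were the E2 box CAGGTG, the AP-1 site TGANTCA, the TATA box TATAAA, the GC box GGGCGG, the CCAAT box and the GRHL site AACCGGTT.
DSG2: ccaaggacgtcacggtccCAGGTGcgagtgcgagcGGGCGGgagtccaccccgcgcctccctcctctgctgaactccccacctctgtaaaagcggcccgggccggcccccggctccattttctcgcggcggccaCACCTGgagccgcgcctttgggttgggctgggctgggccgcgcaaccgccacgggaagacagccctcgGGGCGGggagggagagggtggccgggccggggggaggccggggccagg
DSG3: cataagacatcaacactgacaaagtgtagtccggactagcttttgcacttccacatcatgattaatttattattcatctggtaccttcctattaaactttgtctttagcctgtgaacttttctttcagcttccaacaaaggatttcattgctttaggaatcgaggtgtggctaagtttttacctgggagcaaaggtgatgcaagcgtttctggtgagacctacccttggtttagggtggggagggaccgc
DSC2: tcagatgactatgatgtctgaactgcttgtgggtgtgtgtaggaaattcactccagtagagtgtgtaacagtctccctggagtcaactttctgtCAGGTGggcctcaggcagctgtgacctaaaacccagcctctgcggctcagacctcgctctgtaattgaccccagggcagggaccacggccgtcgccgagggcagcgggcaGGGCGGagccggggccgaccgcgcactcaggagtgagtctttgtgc
DSC3: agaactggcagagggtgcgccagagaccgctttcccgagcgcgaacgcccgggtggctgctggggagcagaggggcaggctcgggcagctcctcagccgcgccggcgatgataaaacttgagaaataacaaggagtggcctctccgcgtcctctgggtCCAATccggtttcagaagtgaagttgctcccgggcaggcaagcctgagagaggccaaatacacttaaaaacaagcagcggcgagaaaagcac
PERP: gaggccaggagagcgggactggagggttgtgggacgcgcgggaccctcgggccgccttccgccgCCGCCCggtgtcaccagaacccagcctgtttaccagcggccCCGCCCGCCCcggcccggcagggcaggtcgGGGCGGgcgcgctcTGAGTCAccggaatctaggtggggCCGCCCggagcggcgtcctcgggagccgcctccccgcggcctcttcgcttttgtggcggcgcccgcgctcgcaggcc
The DSG2 window held 2 E2 boxes and 2 GC boxes, and the DSC2 window 1 of each. The DSC3 window held 1 CCAAT box, and that of DSG3 matched none of these motifs. The PERP window held 1 AP-1 site among 5 GC boxes, some of which overlap. Of 35116 RefSeq promoter windows of this length, 17.5% hold the E2 box, 42.6% the GC box, 6.57% the AP-1 site, 32.0% the CCAAT box, 10.7% the TATA box and 0.117% the GRHL site. The DSG3 window had 4 CpG dinucleotides, against 12 for DSC2, 18 for DSC3, 26 for DSG2 and 34 for PERP, with a median of 11 over all windows. The windows of DSG2, DSC2, DSC3 and PERP end inside the gene as the deposited tables bound it, since the RefSeq start lies further in. These matches describe letters and not bound sites.

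Reads on genes numbered 16665563 to 22748845 per library. Squamocin replicate 3 of SCC15 stood apart from its group, with a chi-square of 71.6 and 63.5 per degree of freedom against replicates 1 and 2, where the other pairs of replicates had 1.72 to 11.02. The reads of the mitochondrial genome made up 1.69% to 1.73% of a library with DMSO and 0.796% to 0.959% with squamocin in SCC15, and 4.37% to 4.54% and 2.45% to 3.50% in SCC25. The deposited values, called normalized counts here, are reads divided by 1 size factor per library that the authors set within each line, so levels were tested only within a line. Treatments were compared with limma after a log2 transform of each normalized count plus 1, and a difference was called at a Benjamini-Hochberg adjusted p below 0.05 over all genes with a mean of at least 10, SE being the standard error of a log2 fold change. With libraries scaled to equal totals instead, the median log2 fold change of all genes moved from 0.012 to -0.48 in SCC15 and from -0.015 to -0.22 in SCC25, which bears on every fold change given below.

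The labelled cell type was checked against 10 epithelial markers, most but not all of them squamous. In SCC25 with DMSO all 10 had a mean of at least 10 normalized counts. In SCC15 with DMSO 9 of 10 did, but KRT5, the basal keratin, had a mean of 9.50 normalized counts there and 5627 in SCC25, TP63 17.5 and 4512, and EPCAM 11.4 and 2942. KRT17, a keratin of activated squamous cells, dominated the list in SCC15, with a mean of 112298 normalized counts under DMSO. The summed level of the 10 markers was 116131 to 122442 with DMSO and 220069 to 380698 with squamocin in SCC15, and 42356 to 42980.0 and 61948 to 65942 in SCC25. KRT17 made up most of the SCC15 sum, at a mean of 260258 with squamocin. Means of KRT5, KRT6A, CDH1, ITGB4, TP63 and EPCAM were lower there with squamocin. Limma called 4 of the 9 markers tested in SCC15 higher and 0 lower, beside 30.9% and 30% of all genes. In SCC25 it called 7 higher and 3 lower, the latter KRT5, CDH1 and ITGB4, beside 38.3% and 38.5%. With equal library totals the counts were 3 higher and 4 lower in SCC15 and 7 and 3 in SCC25. Of 4 endothelial markers, the sum was 158 to 178 with DMSO and 66.1 to 77.1 with squamocin in SCC15, where CDH5 and KDR were not listed. In SCC25 it was 233 to 296 and 19.8 to 37.7. Of 7 mesenchymal markers, the sum was 721 to 795 with DMSO and 486 to 490.1 with squamocin in SCC15, and 774 to 814 and 1075 to 1228 in SCC25. Of 5 leukocyte markers, it stayed between 6.84 and 34.2 in every library, with PTPRC below 4 in SCC15 and not listed in SCC25. Of 5 muscle markers, it was led by ACTN2, except in SCC25 with DMSO where TNNT2 led, and was 302 to 336 with DMSO and 407 to 449.8 with squamocin in SCC15, and 20.7 to 30.1 and 101 to 120 in SCC25, with DES not listed in either line. The part of these shifts in the results below was not tested. Each library is bulk RNA of a cell line and not of a tissue. In such RNA, fewer cells holding a transcript and less of it per cell cannot be told apart.

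SCC15 cells transcribed 7 of the 10 genes at a measurable level, and DSG2 was the only cadherin of the list among them. Levels are compared between genes as RPKM, reads scaled by the exon length in kilobases and by the reads of the library, with exons from GENCODE. In SCC15 with DMSO, PERP led at 122 ± 3.29 RPKM (SD, n = 3), followed by DSG2 at 45.6 ± 0.126, PKP3 at 28.4 ± 0.965, JUP at 28.3 ± 1.94, DSP at 12.3 ± 0.521, PKP1 at 4.22 ± 0.392 and PKP2 at 1.57 ± 0.0673. PKP3 and JUP overlapped, and the other neighbors in that order did not. DSC2 was at 0.0405 ± 0.0108 RPKM in the same libraries, from 12, 8 and 8 reads with DMSO and 5, 3 and 9 with squamocin. DSG3 had 3, 0 and 2 reads with DMSO and 2, 0 and 1 with squamocin, and DSC3 had 1, 0 and 0 and then 2, 1 and 0. All libraries of both genes were thus at or under the floor of 3 reads set here, which covers counting error only, and no fold is given for them.

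In SCC25 with DMSO, all 10 genes were transcribed, and JUP led at 94.9 ± 1.67 RPKM (SD, n = 3). PERP followed at 63.4 ± 2.12, PKP3 at 43.0 ± 0.849, DSP at 21.9 ± 0.105 and DSG2 at 15.9 ± 0.370. The keratinocyte cadherins came next, with DSC3 at 11.1 ± 0.267 and DSG3 at 6.37 ± 0.173. PKP2 was at 5.48 ± 0.0845, DSC2 at 1.60 ± 0.0782 and PKP1 at 1.12 ± 0.0940 RPKM. No neighbors in that order overlapped between libraries. With squamocin the 2 leading genes exchanged places, PERP reaching 118 ± 7.71 RPKM and JUP 73.2 ± 3.57. By the length of the canonical transcript, PKP2 moved above DSC3 and DSG3 in SCC25, and JUP above PKP3 in SCC15.

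**Figure D1:**
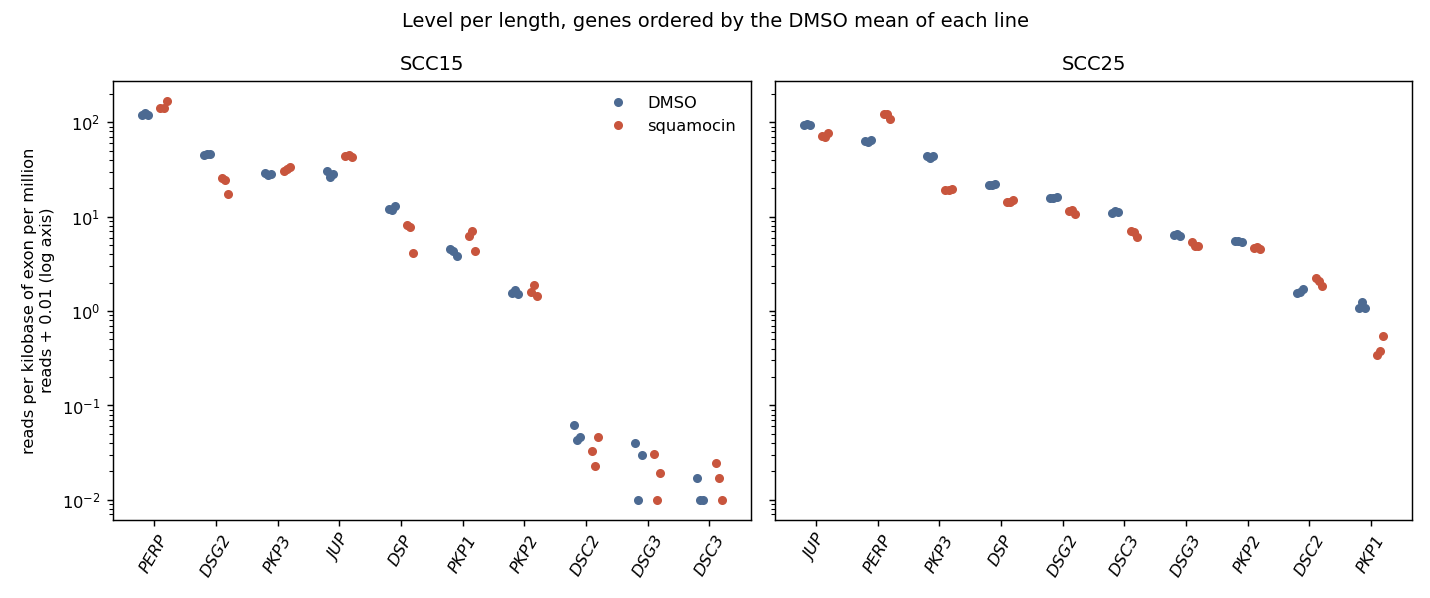
Level per length of the 10 genes in every library of SCC15 (left) and SCC25 (right), as RPKM plus 0.01 on a log axis, with 1 point per library in blue for DMSO and red for squamocin and the genes ordered by their DMSO mean. In SCC15, DSC2, DSG3 and DSC3 lie below 0.1 RPKM, and in SCC25 the lowest gene with DMSO, PKP1, is at 1.12 RPKM.

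Desmogleins and desmocollins sit side by side on chromosome 18, and the desmosomal cadherin genes not among the members had few or no reads. DSG1 and DSG4 were listed in neither table. DSC1 was listed in SCC25 alone, with 2 to 4 reads with DMSO and 4 to 6 with squamocin. Beyond these cadherins, CDSN, which encodes corneodesmosin of the outer epidermis, had at most 3 reads in every library. DSG2 (ENSG00000046604; chromosome 18, 31498043 to 31549008 on GRCh38) overlaps the antisense gene DSG2-AS1, which had 0 to 8 reads per library against at least 1793 for DSG2. DSC2 (ENSG00000134755; chromosome 18, 31058840 to 31102522) overlaps the antisense DSCAS, with 0 to 7 reads. Whether the counting used strand is not given in the sources used here, so reads of an antisense pair may not be told apart.

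Most of the desmosome genes tested were higher with squamocin in SCC15, though only 2 of 7 with equal library totals, and most were lower in SCC25. In SCC15, where 7 members passed the filter, 5 were called higher, 1 lower and 1 was not called, and limma called 30.9% of all 15902 genes tested higher and 30% lower, 61% in either direction. In SCC25, where all 10 passed, 2 were called higher, 6 lower and 2 were not called, against 38.3% and 38.5% of 16539 genes, 76.8% in either direction. The 8 of 10 called there are near that share. Each member that passed had a mean above 10 in both treatments. The median log2 fold change of the members tested was 0.66 in SCC15 and -0.23 in SCC25, beside 0.012 and -0.015 for all genes. With equal library totals, the SCC15 counts became 2 higher and 2 lower and the SCC25 counts 2 higher and 8 lower. The libraries of the 2 treatments did not overlap for 7 of 7 members in SCC15 and 9 of 10 in SCC25, where 70.6% and 79% of all genes tested did not overlap. For 3 libraries against 3, an exact permutation test cannot go below p = 0.1, the value of each member without overlap.

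**Figure D2:**
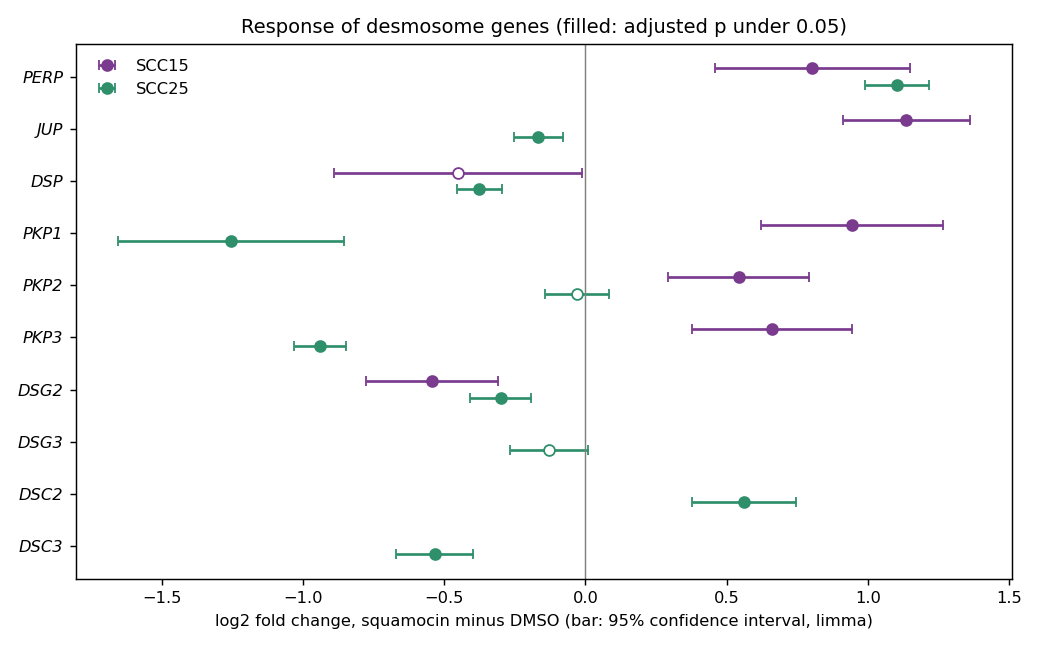
Log2 fold change of each desmosome gene, squamocin minus DMSO, in SCC15 (purple) and SCC25 (green) by limma, with bars for the 95% confidence interval and filled points for an adjusted p below 0.05. JUP, PKP1 and PKP3 lie right of 0 in SCC15 and left of 0 in SCC25, and PERP lies right of 0 in both, at 0.80 and 1.10.

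PERP was the only member called higher in both lines, and 22.1% of the 14454 genes tested in both were. In SCC15 cells PERP (ENSG00000112378; chromosome 6, 138088505 to 138107511) had normalized counts of 7797, 8180.0 and 7774 with DMSO and 12190.2, 12466 and 17357 with squamocin. Squamocin replicate 3 was the highest of its group, and the treatments did not overlap. The gene rose 1.75-fold, a log2 fold change of 0.80 (limma, SE 0.15, adjusted p = 0.00268). In SCC25 cells the counts were 4894, 4699 and 5016 with DMSO and 10844, 11006 and 9599 with squamocin. It rose 2.15-fold there, a log2 fold change of 1.10 (limma, SE 0.052, adjusted p = 1.10e-09). With equal library totals PERP was still called higher, at 0.31 in SCC15 and 0.90 in SCC25.

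**Figure D3:**
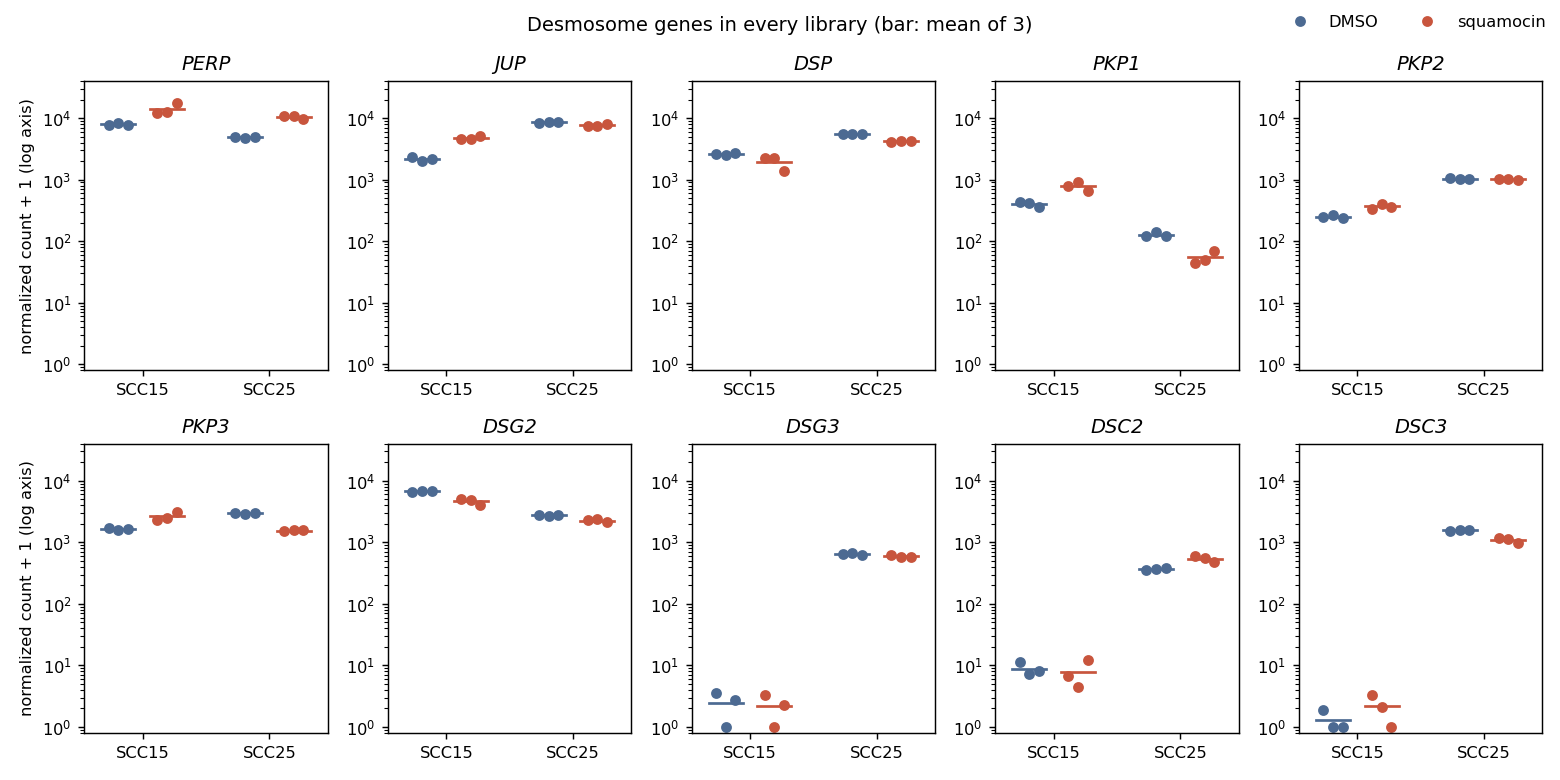
Normalized count plus 1 of each desmosome gene on a log axis in every library of SCC15 and SCC25, with 1 point per library (blue DMSO, red squamocin) and a bar at the mean of 3. PERP is higher with squamocin in both lines, whereas PKP3 and PKP1 are higher in SCC15 and lower in SCC25 on this scale.

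DSG2 was called lower in both lines, as were 18.6% of all genes tested in both. This desmoglein, found in nearly every desmosome-bearing tissue, had 6695, 6715 and 6711 normalized counts with DMSO and 4975, 4789.8 and 4086 with squamocin in SCC15. The DMSO libraries lay within 20 counts of each other, and all 3 squamocin libraries were below them. Its log2 fold change was -0.54 (limma, SE 0.10, adjusted p = 0.00266), a level of 0.686 times that with DMSO. In SCC25 DSG2 had 2768, 2705 and 2828 normalized counts with DMSO and 2279, 2364 and 2103 with squamocin, again without overlap, for a log2 fold change of -0.30 (limma, SE 0.0502, adjusted p = 1.30e-04).

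The desmocollins of SCC25 moved in opposite directions. DSC3 (ENSG00000134762; chromosome 18, 30990008 to 31042815), the desmocollin of basal keratinocytes, had 1536, 1606 and 1558 normalized counts with DMSO and 1160.4, 1112 and 983 with squamocin. All squamocin libraries were below all DMSO libraries, and the log2 fold change was -0.53 (limma, SE 0.063, adjusted p = 5.66e-06). DSC2, the more widely expressed desmocollin, had 351, 362 and 384 with DMSO and 595, 546 and 484 with squamocin, all above DMSO. It rose by 0.56 on the log2 scale (limma, SE 0.085, adjusted p = 5.50e-05). DSG3 (ENSG00000134757; chromosome 18, 31447795 to 31478702), the main pemphigus vulgaris autoantigen, had 652, 667 and 630.2 with DMSO and 629, 581 and 573 with squamocin. These groups lay side by side without overlap, and the log2 fold change of -0.13 was not past the threshold (95% confidence interval -0.27 to 0.010, adjusted p = 0.0830, limma). It was past it in edgeR on the recovered reads (-0.15, adjusted p = 0.0454), without squamocin replicate 1 (-0.17, adjusted p = 0.0397, limma) and with equal library totals (-0.34).

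JUP changed in opposite directions in the lines. In SCC15 JUP (ENSG00000173801; chromosome 17, 41754604 to 41786931), whose product plakoglobin serves both desmosomes and adherens junctions, had 2314, 2019 and 2165 normalized counts with DMSO and 4488, 4639 and 5171 with squamocin. The rise was 2.20-fold, the largest of the members there, with a log2 fold change of 1.14 (limma, SE 0.096, adjusted p = 9.04e-05), and it was 0.64 and still called with equal library totals. In SCC25, where JUP was the most abundant member with DMSO, the counts were 8470.2, 8735 and 8512 with DMSO and 7559.9, 7380.1 and 7977 with squamocin. It fell by 0.17 on the log2 scale (limma, SE 0.0401, adjusted p = 0.00217), a small change with no overlap between treatments.

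DSP (ENSG00000096696; chromosome 6, 7541575 to 7586717), which encodes the keratin-binding desmoplakin, was called lower in SCC25, where it had 5448, 5420.4 and 5462 normalized counts with DMSO and 4151, 4169 and 4269.8 with squamocin. It fell by 0.38 on the log2 scale (limma, SE 0.037, adjusted p = 1.06e-06). In SCC15 DSP had 2571, 2502 and 2707 with DMSO and 2245, 2219 and 1369 with squamocin, all below DMSO, with replicate 3 far below the other two. Its log2 fold change there was -0.45 (limma, SE 0.19, adjusted p = 0.0708), not past the threshold. Without squamocin replicate 3 the value was -0.22 and past it (limma, adjusted p = 3.49e-04), and without squamocin replicate 1 it was -0.57 and past it (adjusted p = 0.0451). Library weights gave -0.25 (limma, adjusted p = 0.00667) and equal library totals -0.95 (limma, adjusted p = 0.0122).

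The plakophilins, armadillo-repeat proteins that cluster desmoplakin at the plaque, were all called higher in SCC15, though none with equal library totals, and 2 of the 3 were called lower in SCC25. PKP3 (ENSG00000184363; chromosome 11, 392614 to 404908), the plakophilin found across most epithelial layers, had 1722, 1612 and 1673 normalized counts with DMSO and 2336, 2503 and 3142 with squamocin in SCC15. It rose by 0.66 on the log2 scale (limma, SE 0.12, adjusted p = 0.00256). In SCC25 it had 3019.8, 2916 and 3020.2 with DMSO and 1529, 1563 and 1572 with squamocin, and so fell to 0.521 of the DMSO level. The log2 fold change was -0.94 (limma, SE 0.043, adjusted p = 7.06e-10).

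PKP1 (ENSG00000081277; chromosome 1, 201283452 to 201332993), the plakophilin of suprabasal layers, had 439, 415 and 364 normalized counts with DMSO and 794, 907 and 661 with squamocin in SCC15, a rise of 0.95 on the log2 scale (limma, SE 0.14, adjusted p = 9.42e-04). In SCC25, where it was the least abundant member, it had 121, 139 and 121 with DMSO and 43.2, 48.9 and 68.8 with squamocin, all below DMSO. Its log2 fold change of -1.25 was the largest fall among the members (limma, SE 0.18, adjusted p = 4.09e-05). PKP2 (ENSG00000057294; chromosome 12, 32790745 to 32896840), the plakophilin of simple epithelia and heart muscle, had 249, 262 and 240.1 with DMSO and 335, 400.1 and 363 with squamocin in SCC15, a rise of 0.54 (limma, SE 0.11, adjusted p = 0.00370). In SCC25 its 1049, 1033 and 1013 counts with DMSO overlapped the 1022, 1038 and 973 with squamocin, and the log2 fold change was -0.030 (95% confidence interval -0.14 to 0.084, adjusted p = 0.618, limma). With equal library totals none of the 3 rises in SCC15 was past limma's threshold, at 0.45 for PKP1 (adjusted p = 0.0653), 0.163 for PKP3 (0.111) and 0.046 for PKP2 (0.755), and PKP2 in SCC25 was called lower at -0.24.

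Inside PKP2 lies the sense intronic noncoding gene AC087588.2 (chromosome 12, 32820142 to 32820567, on the strand of PKP2). It had 1 to 4 reads per library with DMSO and 13 to 29 with squamocin in SCC15, and 2 to 6 and 44 to 56 in SCC25. The treatments did not overlap in either line. It passed the filter only through the squamocin libraries, and DMSO libraries were at or near the floor of 3 reads, so no fold or test is given. At this position a transcript of its own and unspliced PKP2 RNA give the same reads and cannot be told apart.

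The response differed between the lines for JUP and all 3 plakophilins. It was tested as the limma contrast of the log2 fold change in SCC15 minus that in SCC25 over the 14454 genes tested in both, of which 26.1% were called higher in SCC15, 26% lower and 52.2% in either direction. Of the 7 members tested in both, 4 were called higher and 0 lower, a total near the share of all genes called in either direction. At an unadjusted p below 0.05, 1 further member, DSG2, was below 0, with an interval that just excluded 0, and edgeR and DESeq2 also called 0 lower. The difference was 2.20 for PKP1 (limma, SE 0.24, adjusted p = 8.79e-06), 1.60 for PKP3 (limma, SE 0.13, adjusted p = 8.58e-07), 1.30 for JUP (limma, SE 0.11, adjusted p = 8.71e-07) and 0.57 for PKP2 (limma, SE 0.11, adjusted p = 9.77e-04). JUP, PKP1 and PKP3 were called higher in SCC15 and lower in SCC25, a pairing of calls that 5.44% of the genes tested in both showed. With equal library totals, PKP1 and PKP3 were not called higher in SCC15. The opposite pairing, which 4.66% of genes showed, was seen in no member.

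For the other members tested in both lines no difference was called. It was -0.075 for DSP (95% confidence interval -0.52 to 0.37, adjusted p = 0.777, limma), -0.24 for DSG2 (-0.48 to -0.0025, adjusted p = 0.0832, limma) and -0.300 for PERP (-0.66 to 0.057, adjusted p = 0.145, limma). Single libraries decided these calls. Without squamocin replicate 3 of SCC15 the PERP difference was -0.46 (limma, adjusted p = 1.43e-05), and that of DSP turned to 0.16 (limma, adjusted p = 0.0219). The DSG2 difference was called at -0.16 without that library (limma, adjusted p = 0.0411), at -0.30 without SCC15 squamocin replicate 1 (adjusted p = 0.0342) and at -0.29 without SCC25 squamocin replicate 3 (adjusted p = 0.0480). For PKP2 the difference was 0.28 and no longer called with equal library totals (limma, adjusted p = 0.0801).

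Ratios of reads between members of the same library do not depend on the scaling of libraries. Of 12 ratios compared between treatments, chosen with the values known, 8 did not overlap, each at the smallest exact permutation p of 0.1 (0.15 after Benjamini-Hochberg adjustment over the 12). In SCC25 the ratio of DSC2 to DSC3 reads was 0.228, 0.226 and 0.247 with DMSO and 0.513, 0.491 and 0.493 with squamocin. The ratio of DSG2 to DSG3 reads there was 4.24, 4.06 and 4.49 with DMSO and 3.62, 4.07 and 3.67 with squamocin, which overlapped. The desmocollin pair was chosen after its members had been seen to move in opposite directions. The other pairs too were chosen with the values of their members known. All these ratios therefore describe the changes in each library and add no test of them. PERP reads per DSP read went from 3.06 ± 0.1998 (SD, n = 3) to 7.91 ± 4.13 in SCC15 and from 0.895 ± 0.0260 to 2.50 ± 0.219 in SCC25. JUP reads per DSP read went from 0.835 ± 0.0558 to 2.62 ± 1.00 in SCC15 and from 1.57 ± 0.0318 to 1.82 ± 0.0490 in SCC25. Both ratios to DSP were higher with squamocin in every library of both lines, by the widest margin in SCC15 squamocin replicate 3. PKP3 reads per JUP read were lower with squamocin in both lines, at 0.556 ± 0.0458 against 0.772 ± 0.0270 in SCC15 and 0.204 ± 0.00746 against 0.348 ± 0.0126 in SCC25. The ratio of PKP2 to PKP3 reads overlapped in SCC15 and was 0.650 ± 0.0275 with squamocin against 0.346 ± 0.00954 with DMSO in SCC25. That of PKP1 to PKP3 reads overlapped in both lines (exact permutation p = 0.4 in SCC15 and 0.3 in SCC25).

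**Figure D4:**
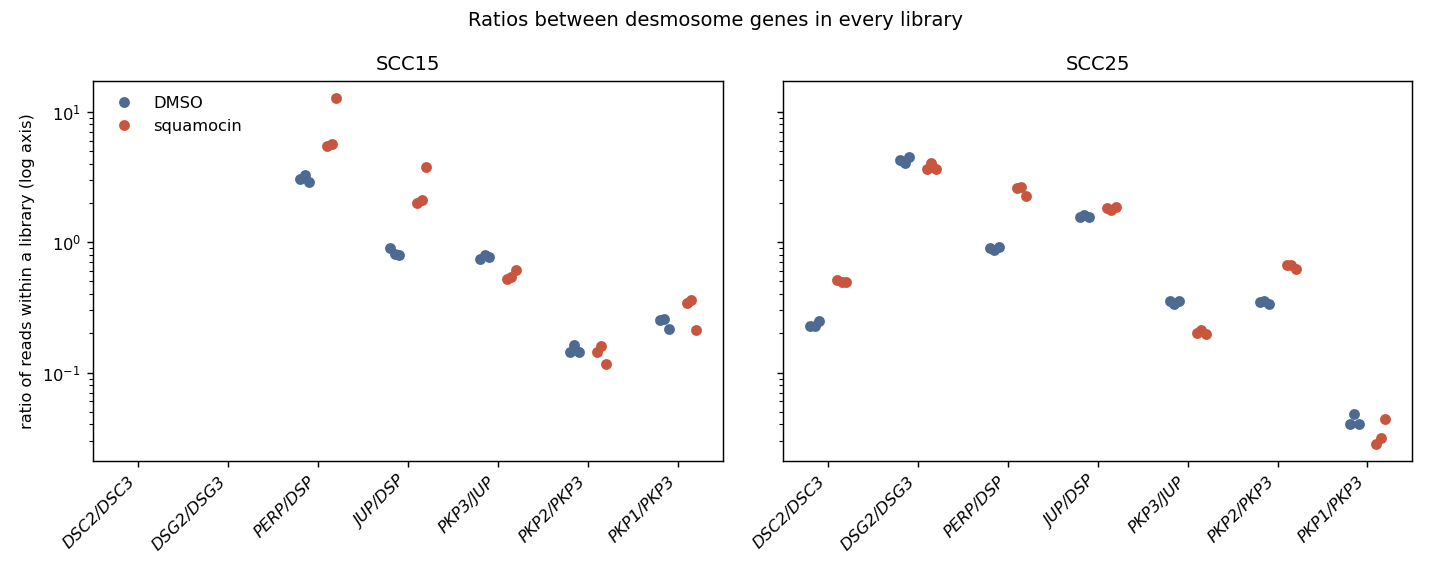
Ratio of the reads of 2 desmosome genes within each library on a log axis, for SCC15 (left) and SCC25 (right), with 1 point per library in blue for DMSO and red for squamocin and no points in SCC15 for the pairs with DSC3 or DSG3, which had 3 reads or fewer in each library. The DSC2 to DSC3 ratio in SCC25 lies between 0.226 and 0.247 with DMSO and between 0.491 and 0.513 with squamocin.

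The partners of the desmosome were read from lists of related genes, beside the 61% of all genes called in SCC15 (30.9% higher, 30% lower) and the 76.8% in SCC25 (38.3% higher, 38.5% lower). Of 15 plakins and plaque partners, 13 were tested in SCC15, with 3 called higher and 4 lower and a median log2 fold change of 0.053. All 15 were tested in SCC25, with 7 higher and 6 lower and a median of 0.12. Of the 7, VIM passed the filter only through the squamocin libraries, at 4.73 normalized counts with DMSO and 17.5 with squamocin. The total called was near the share of all genes in both lines. PPL, which encodes the cornified-envelope plakin periplakin, was lower in both lines, by a log2 fold change of -0.79 (limma, adjusted p = 0.00227) in SCC15 and -1.37 (limma, adjusted p = 2.84e-09) in SCC25. FLOT1, a flotillin of membrane rafts, was higher in SCC15 (0.81, adjusted p = 0.00268, limma) and lower in SCC25 (-0.54, adjusted p = 1.73e-06, limma). The basal keratin KRT14, also one of the squamous markers, was higher in both, from 759 ± 8.06 to 1440.4 ± 409.8 normalized counts (SD, n = 3) in SCC15 and from 372 ± 23.2 to 779 ± 75.4 in SCC25.

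Of 12 adherens junction genes, limma called 4 higher and 3 lower in SCC15 (median -0.088), a total near the 61% of all genes. In SCC25 it called 3 higher and 7 lower (median -0.20), where 76.8% of all genes were called. NECTIN1, a nectin that starts cell contacts, fell in both lines, with log2 fold changes of -0.90 (limma, adjusted p = 1.80e-04) and -1.88 (limma, adjusted p = 3.82e-12). NECTIN4 rose in SCC25, from 446 ± 25.3 to 3531 ± 267 normalized counts (SD, n = 3). In SCC15 it had 4.999 ± 1.32 with DMSO and 28.3 ± 1.60 with squamocin, and it passed the filter there only through the squamocin libraries. The classical cadherins CDH3 and CDH1 of SCC25 fell by 0.88 (limma, adjusted p = 1.12e-08) and 0.46 (limma, adjusted p = 1.52e-06) on the log2 scale.

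Of 13 tight junction genes, SCC15 had 6 higher and 4 lower calls (median 0.40), where 30.9% and 30% of all genes were called. SCC25 had 8 higher and 4 lower (median 0.23), against 38.3% and 38.5%, and 4 of each with equal library totals. The claudin CLDN12 rose in both, by 1.36 (limma, adjusted p = 2.72e-05) and 1.28 (limma, adjusted p = 2.09e-10) on the log2 scale. TJP3, a scaffold of the tight junction, fell from 467 ± 14.6 to 108 ± 11.1 normalized counts (SD, n = 3) in SCC25. In SCC15 it had 19.4 ± 6.24 normalized counts with DMSO, while each squamocin library held 0 or 1 read, so no fold is given. TJP3 and MARVELD3 (26.9 normalized counts with DMSO, 7.14 with squamocin) passed the filter in SCC15 only through the DMSO libraries. Both are among the genes called lower there. Of 6 gap junction genes, 5 were tested in SCC25 and 3 were called lower there, of which the connexin GJB2 fell by 1.41 (limma, adjusted p = 3.79e-10).

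Among 14 genes of desmosome assembly, turnover and transport, 2 of 12 tested were higher and 6 lower in SCC15 (median -0.23), beside 30.9% and 30% of all genes. In SCC25, 4 of 14 were higher and 9 lower (median -0.25), beside 38.3% and 38.5%. KLK5, a protease that cuts corneodesmosomes, fell from 812.5 ± 36.7 to 208 ± 18.01 normalized counts (SD, n = 3) in SCC25. The envelope crosslinker TGM1 fell from 37.6 ± 6.89 to 7.41 ± 2.20 in SCC15. It passed the filter there only through the DMSO libraries. In SCC25 the same held for KLK7, which had a mean of 39.4 under DMSO and 5.20 under squamocin. Each is among the genes called lower in that line. Of 12 transcription factors known for desmosomal genes, 6 of 10 tested were higher and 2 lower in SCC15 (median 0.86), and 8 of 12 were higher and 2 lower in SCC25 (median 0.58), beside the same shares of all genes. Of the 8, ZEB1 (3.94 normalized counts with DMSO, 31.0 with squamocin) and GRHL3 (2.83 and 20.8) passed the filter only through the squamocin libraries. GRHL1, a grainyhead factor of epithelial junction genes, was higher in SCC15 by a log2 fold change of 1.73 (limma, adjusted p = 1.01e-04), and the repressor SNAI1 one of 1.13 (limma, adjusted p = 1.28e-04). In SCC25, KLF4 rose by 2.24 (limma, adjusted p = 1.09e-12), while GRHL2 fell by 1.00 (limma, adjusted p = 5.67e-09). SNAI1 was called higher there too, at 0.58 (limma, adjusted p = 2.94e-04). The list mixes activators with repressors, so its counts and medians carry no single direction for desmosomal genes. With equal library totals, the SCC15 counts were 2 higher and 8 lower for the plaque partners, 1 and 8 for adherens junctions, 3 and 6 for tight junctions, 1 and 8 for assembly and 6 and 3 for the transcription factors. In SCC25 they were 6 and 6 for the plaque partners, 3 and 8 for adherens junctions, 4 and 4 for tight junctions, 3 and 9 for assembly and 8 and 3 for the transcription factors.

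**Figure D5:**
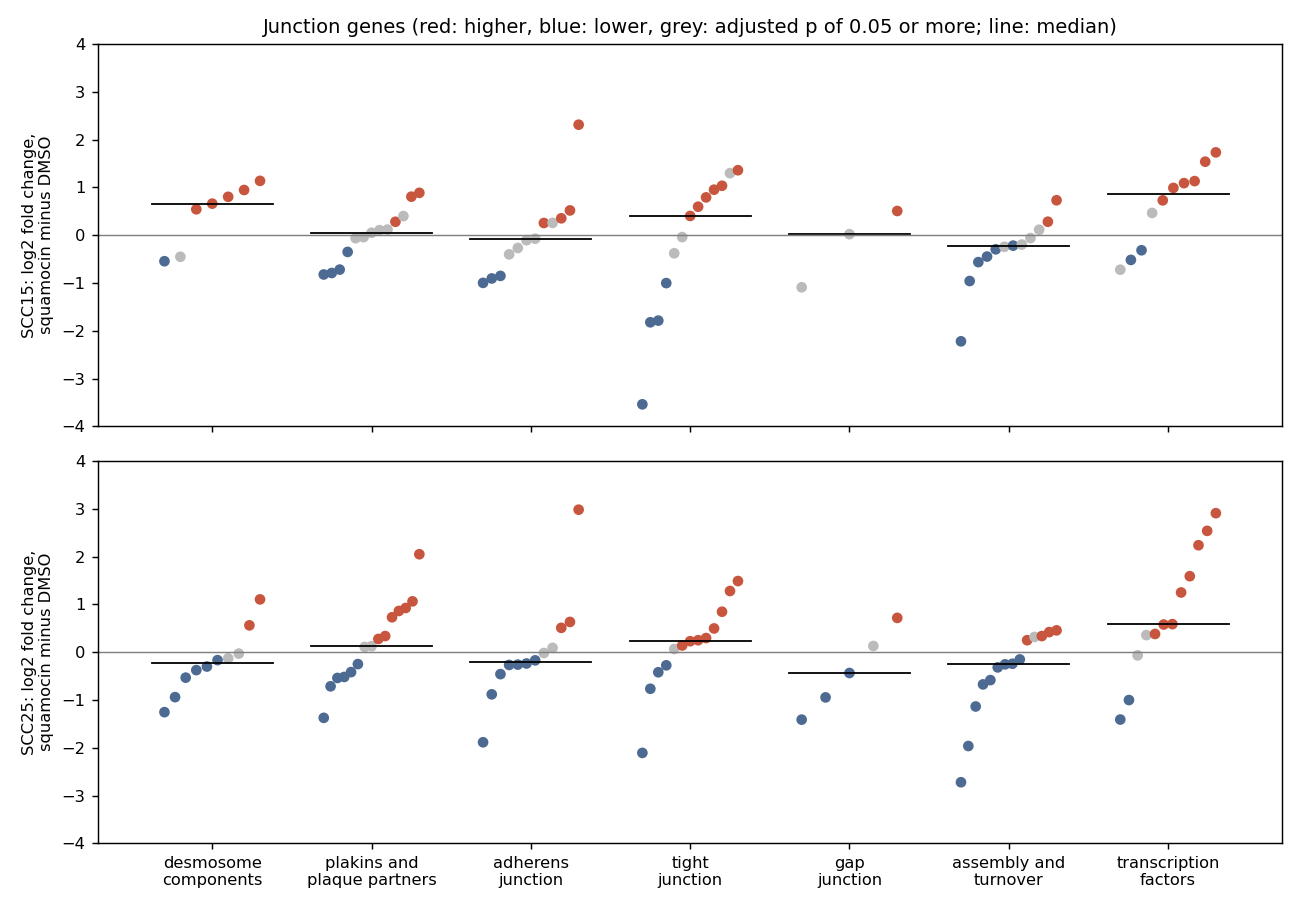
Log2 fold change, squamocin minus DMSO, of each tested gene of the desmosome and of 6 related lists in SCC15 (top) and SCC25 (bottom), with 1 point per gene colored by limma's call at an adjusted p below 0.05 and a line at the median of each list. The lowest point in SCC15 is TJP3, which had 0 or 1 read with squamocin. The median of the desmosome genes is 0.66 in SCC15 and -0.23 in SCC25, where the gap junction genes have the lowest median, -0.44.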

How the data were processed

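RNA for 12 libraries was sequenced by the authors (NEBNext Ultra libraries), and reads were aligned to GRCh38 with HISAT2 2.0.5 and counted per gene with featureCounts 1.5.0-p3, per the labels and the submitters' processing notes. The deposited values are a signal, namely read counts that had been scaled by the authors with size factors, separately for SCC15 and SCC25. The SCC25 columns are headed fpkm, but the values are not divided by length. The deposited tables also hold the authors' means, log2 fold changes and p-values of their own comparison, none of which was used. Dividing each library by its smallest step gave whole reads (within 0.01) for 100% of values. On these reads edgeR called 4712 genes higher and 5168 lower in SCC15, and 6298 and 6506 in SCC25, where limma on the deposited values called 4921 and 4773, and 6335 and 6367.

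Genes with a mean of at least 10 normalized counts were tested with limma 3.58.1 (two-sided, with a mean-variance trend, in R 4.3.3) within each line and for the difference between lines. Alternatives were pseudocounts of 0.1 and 10 in place of 1, other filters, TMM factors, scaling to equal totals, count models of the recovered reads by DESeq2 1.42.0 and by edgeR 4.0.16, library weights, the replicate number as a block and each library left out. The fits were tested on simulated data. Coordinates are those of the tables. The members and lists were chosen with earlier results of these data known, and of each list at most 3 genes called per direction and line, those with the largest fold change, were named. SNAI1 in SCC25 was named beyond that rule, beside its value in SCC15. Some list genes and 1 motif are not reported here.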

Additional observations from a re-analysis of the deposited data

Results flagged for a closer look

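The response to squamocin differed between the lines, by limma's contrast of SCC15 minus SCC25 on the log2 scale, for 4 of the 7 desmosome genes tested in both. The difference was 2.20 for PKP1, 1.60 for PKP3, 1.30 for JUP and 0.57 for PKP2, where 52.2% of all genes tested in both lines were called in either direction. The 4 of 7 are near that share, and PKP2 was no longer called with equal library totals (0.28, limma, adjusted p = 0.0801). For PKP1, PKP3 and JUP the squamocin libraries all lay above those with DMSO in SCC15 and all below them in SCC25, in normalized counts. With equal library totals the SCC15 rise was still called for JUP (0.64). It was no longer called for PKP1 (0.45, limma, adjusted p = 0.0653) or PKP3 (0.163, limma, adjusted p = 0.111). No group had more than 3 libraries, so single libraries were not tested as outliers.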

How the results depend on the processing

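With equal library totals, 2 members were called higher and 2 lower in SCC15, where the median of the members tested was 0.163, the median in SCC25 was -0.44, and 2 members were called lower in the difference between the lines (DSG2 and PERP). With library weights, whose estimate stopped short of its convergence tolerance, 2 members were called lower in SCC15 and 1 in the difference, and the difference for DSP turned to 0.12, not past the threshold. With each library left out in turn, 5 members were called higher and 1 to 2 lower in SCC15, and 0 to 2 lower in the difference, where the DSP value ran from -0.197 to 0.16, its top without SCC15 squamocin replicate 3. The calls in the difference turned on that library, SCC15 squamocin replicate 1 and SCC25 squamocin replicate 3. The 1 to 2 lower in SCC15 turned on squamocin replicates 1 and 3, without either of which DSP was called. The cause of these moves was not tested, although an equal total lowers every log2 fold change of a line by construction. The median difference between the lines over the members tested in both went from 0.57 to 0.28 with equal library totals. The counts of the related lists were recomputed with equal library totals alone. Same-numbered libraries did not deviate together (correlations of -0.051 to 0.0078), so the numbers are only names, and with the replicate block 5 members were called higher and 1 lower in SCC15 and 2 and 6 in SCC25, as without it. The tables give no gene length, so the planned comparison of lengths was not run, and that with the canonical transcript was chosen after seeing the data. It kept 8 of 10 members at the same place in SCC15 and 7 in SCC25. Depth limits DSC2, DSC3 and DSG3 in SCC15, which held at most 12 reads in a library.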
